A study of Mus musculus with 16 samples.

Results

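The small RNA libraries of wild-type mouse embryonic stem cells at 24 h after leaving 2iL were compared with those at 12 h, the second interval of the exit from naive pluripotency. The members were the hairpin-arm rows of the deposited small RNA table with a value above 0 in at least 2 of the 4 libraries compared, and 1283 of the table's 1696 rows met this rule. A hairpin-arm row holds the reads of 1 side (5p or 3p) of 1 miRNA precursor hairpin. Of the 1283 members, 797 passed a filter on the mean of all 8 small RNA libraries and were tested. The other 486 stayed below 0.378 in each of the 4 libraries and are not described further.

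All groups came from 1 wild-type line, named V65 in the column headers, of mixed 129/C57BL/6 background at passages 9 to 11. The 24 h group (2 libraries) and the 12 h group (2 libraries) were grown in N2B27 medium with bFGF and KSR for 24 h and 12 h. The 0 h group (2 libraries) was in 2iL, a medium with MEK and GSK3 inhibitors and LIF that holds the cells in the naive state, and the 48 h group (2 libraries) was in the differentiation medium for 48 h. The series follows small RNA while the cells leave pluripotency, and its design text calls the 2 libraries of a time biological replicates. Because it does not say what was repeated, the p-values measure the spread between these libraries, and a result from a single line may not hold for others. Reads were inferred from the deposited signal and summed over all rows. They came to 8393703 and 7179271 for the 24 h libraries, and 6935147 and 7566173 for the 12 h libraries. Rows of copies can count a read more than once, so these sums are not measured sequencing depths.

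MicroRNAs are short RNAs cut from hairpins by Drosha with Dgcr8 and then by Dicer, and they repress messenger RNAs that pair with their seed, bases 2 to 8 counted from the 5′ end. Members with one seed are expected to share many targets, and members of one cluster are cut from one primary transcript. In mouse embryonic stem cells the miR-290/miR-295 cluster is the main source of miRNA in the naive state, the miR-302/miR-367 cluster is known for its activity in the primed state, and let-7 miRNAs are known for opposing the pluripotent state, with Lin28 blocking their maturation.

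The mature sequences below are those of the seed families on which the comparison turns, given 5′ to 3′ with the seed in capitals, from RefSeq on GRCm38.p6. RefSeq sequences were matched to 809 of the 1283 members, and to 503 of the 797 tested. The first set carries the AAGUGCU seed and comes from 2 clusters, miR-302/miR-367 (hairpins at chr3:127545228-127545807, plus strand) and miR-290/miR-295 (chr7:3218626-3220841, plus strand).
miR-302b-3p: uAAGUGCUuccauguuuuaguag
miR-302d-3p: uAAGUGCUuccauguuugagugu
miR-291a-3p: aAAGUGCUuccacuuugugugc
miR-294-3p: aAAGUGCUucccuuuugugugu
miR-295-3p: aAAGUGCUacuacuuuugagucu

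The second set carries the AAAGUGC seed, the same letters shifted by 1 base, and comes from 3 related clusters. These are miR-106a/miR-363 (chrX:52741693-52742567, minus strand), miR-17/miR-92 (chr14:115043671-115044391, plus strand) and miR-106b/miR-25 (chr5:138165321-138165818, minus strand). The last pair, from the miR-17/miR-92 cluster, carries the GUGCAAA seed of miR-19.
miR-106a-5p: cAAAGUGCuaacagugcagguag
miR-20b-5p: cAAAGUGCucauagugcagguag
miR-17-5p: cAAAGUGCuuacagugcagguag
miR-20a-5p: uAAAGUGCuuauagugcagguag
miR-93-5p: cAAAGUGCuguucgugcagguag
miR-106b-5p: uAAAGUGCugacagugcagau
miR-19a-3p: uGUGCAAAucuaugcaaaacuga
miR-19b-1-3p: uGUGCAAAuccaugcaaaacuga

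The third set shows members outside these clusters whose values are described below: the GGCAGUG seed of miR-34 and miR-449, the UCAAGUA seed of miR-26, the UCCCUUU seed of miR-204 and miR-211, and single miRNAs among the largest changes.
miR-34a-5p: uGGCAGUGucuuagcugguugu
miR-34b-5p: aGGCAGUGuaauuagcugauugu
miR-449a-5p: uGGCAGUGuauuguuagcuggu
miR-449c-5p: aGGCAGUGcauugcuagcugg
miR-26a-1-5p: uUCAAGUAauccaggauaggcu
miR-26b-5p: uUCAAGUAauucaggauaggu
miR-211-5p: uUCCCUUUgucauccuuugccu
miR-204-5p: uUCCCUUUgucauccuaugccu
miR-203-3p: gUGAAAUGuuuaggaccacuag
miR-499-5p: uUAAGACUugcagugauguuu
miR-10b-5p: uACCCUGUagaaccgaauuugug
miR-21a-5p: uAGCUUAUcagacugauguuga

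Values are the deposited relative signal, in which every library sums to 110000 over all arms, so that a value is a share of the library's miRNA signal and not an amount per cell. In bulk samples such as these, fewer cells of a type and less RNA per cell cannot be told apart. Each pair of values gives replicate 1 and then replicate 2. Differences are log2(24 h) minus log2(12 h) of the signal plus 0.1, which understates the change of the lowest arms. An arm was called higher or lower where limma's Benjamini-Hochberg adjusted p over the 797 arms was below 0.05. The identity of the cells was checked on the stem cell clusters: miR-290/miR-295 arms made up 35.3% and 37.9% of the signal at 24 h, against 41.4% and 40.9% at 12 h, and miR-302/miR-367 arms 2.25% and 2.46% at 24 h, against 1.61% and 1.64% at 12 h.

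Of the 797 arms tested, 333 (41.8%) were called, 207 higher (26.0%) and 126 lower (15.8%) at 24 h. At least 2-fold differences were made by 26 of the higher and 13 of the lower arms. The median difference over all arms was 0.06, with a median standard error of 0.14. Many rows are copies of one mature sequence that share their reads: with rows of near-equal values counted once, 138 of 694 profiles were higher and 118 were lower. The excess of rises over falls depended on how the libraries were scaled, with 161 higher and 167 lower after quantile normalization and 172 higher and 161 lower when the miR-290/miR-295 cluster was left out of the library total. Both 24 h libraries lay above both 12 h libraries for 331 arms (41.5%) and below them for 264 (33.1%), and all 333 called arms were among these. For a called arm, a lack of overlap is therefore no separate result. The largest differences were made by arms of low or middle signal, as the plot of difference against level shows.

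**Figure D1:**
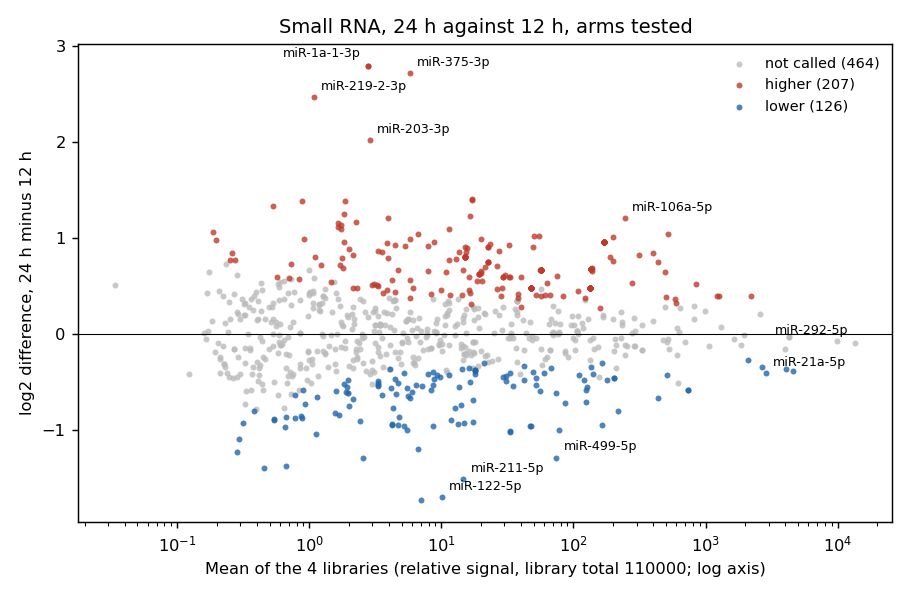
Each point is 1 of the 797 arms tested, with the mean relative signal of the 4 libraries on the horizontal log axis and the log2 difference (24 h minus 12 h) on the vertical axis; red arms were called higher (207), blue arms lower (126) and grey arms not called (464). The largest rises (miR-1a-1-3p, miR-375-3p, miR-219-2-3p, miR-203-3p) lie at means below 10, and the most abundant arm, miR-292-5p, lies near 0.

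The largest rise was that of the miR-1a 3p arm, the muscle miRNA best known from heart and skeletal muscle, whose 2 hairpin rows hold the same reads. miR-1a-1-3p had 4.86 and 5.09 at 24 h, against 0.667 and 0.596 at 12 h. The 2 libraries of each time lay close together and far from the other time, and the log2 difference was 2.79 (SE 0.17, limma adjusted p = 2.17e-07). These values stand for 371 and 332 reads at 24 h, against 42 and 41 reads at 12 h. Along the course it had 0.523 and 0.365 at 0 h and 15.7 and 14.0 at 48 h, so the signal was highest at the last time.

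miR-375-3p, best known from pancreatic islets and other endocrine and epithelial cells, had 10.16 and 10.02 at 24 h, against 1.30 and 1.61 at 12 h. Both 24 h libraries were far above both 12 h libraries, by 2.72 on the log2 scale (SE 0.17, limma adjusted p = 2.17e-07). It also rose in the first interval, where 0 h libraries had 0.163 and 0.223, and at 48 h it stood at 11.3 and 13.7. Its change in the second interval was therefore close to its change of 2.41 in the first, and the 2 intervals share the 12 h libraries.

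miR-219-2-3p, the partner of a miRNA known from oligodendrocytes, had 2.03 and 1.75 at 24 h, against 0.396 and 0.160 at 12 h, a log2 difference of 2.47 (SE 0.32, limma adjusted p = 9.28e-05). The 12 h libraries held 25 and 11 reads of it and differed from each other more than the 24 h libraries did. miR-203-3p, a miRNA of stratified epithelium that represses the stem cell factor p63 in skin, had 4.93 and 4.41 at 24 h, against 0.953 and 1.21 at 12 h. Groups did not overlap, and the log2 difference was 2.02 (SE 0.18, limma adjusted p = 6.29e-06).

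The next largest rises were of several kinds. The 3p arm of miR-344-1 and miR-344-2, whose rows hold nearly the same values, had 24.88 and 25.01 at 24 h, against 9.45 and 9.32 at 12 h for miR-344-1-3p (log2 difference 1.40, limma adjusted p = 5.19e-06). Rises between 1.21 and 1.38 on the log2 scale were made by miR-466n-3p of the rodent repeat hairpins, miR-449c-5p, miR-465a-5p, miR-92a-2-5p and miR-106a-5p. Of these only miR-465a-5p had 24 h libraries that stood well apart from each other, at 3.08 and 2.15, against 1.06 and 0.990 at 12 h. miR-106a-5p was the most abundant of the group, with 333 and 347 at 24 h, against 141.9 and 152.9 at 12 h.

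Among the falls, miR-122-5p, the main miRNA of liver, had 4.19 and 5.24 at 24 h, against 15.3 and 15.6 at 12 h. The difference was -1.70 (SE 0.15, limma adjusted p = 5.19e-06) and the groups were far apart. Its course was a peak at 12 h: the 0 h libraries had 1.90 and 2.00, and the 48 h libraries 1.27 and 1.43.

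miR-211-5p, which lies in an intron of the melanocyte gene Trpm1, had 6.78 and 8.41 at 24 h, against 22.3 and 21.2 at 12 h. It fell by 1.51 on the log2 scale (SE 0.13, limma adjusted p = 5.19e-06) without overlap. It was lower at each later time, with 38.5 and 38.9 at 0 h and 0.963 and 1.04 at 48 h. Its seed partner miR-204-5p was much scarcer, with 0.341 and 0.337 at 24 h, against 0.588 and 0.479 at 12 h, and was not called (limma adjusted p = 0.105).

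miR-499-5p, encoded in an intron of the myosin gene Myh7b, had 36.9 and 49.6 at 24 h, against 107 and 103 at 12 h, a difference of -1.29 (SE 0.13, limma adjusted p = 1.78e-05). Both 24 h libraries were below both 12 h libraries, and replicate 1 was the lower of the 24 h pair. miR-184-3p, abundant in cornea and lens, fell by 1.29 on the log2 scale to 1.31 and 1.58 at 24 h, against 3.44 and 3.91 at 12 h. miR-10b-5p, encoded in the HoxD cluster, fell by 1.1995 to 3.45 and 4.62 at 24 h, against 9.22 and 9.37 at 12 h (limma adjusted p = 9.82e-05 for miR-184-3p and 0.000127 for miR-10b-5p).

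The miR-218 5p arms, which lie in introns of the Slit genes, fell by 1.02 for miR-218-1-5p and 1.01 for miR-218-2-5p on the log2 scale. miR-218-1-5p had 22.8 and 20.6 at 24 h, against 44.3 and 44.0 at 12 h. let-7g-5p, let-7f-1-5p, let-7f-2-5p and miR-196a-1-5p completed the largest falls, at -0.957 to -0.997.

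The lowest fitted value belonged to miR-5115-5p (-1.73, SE 0.48, limma adjusted p = 0.0105), but its 24 h libraries disagreed, at 6.33 and 1.38, against 9.71 and 10.6 at 12 h. DESeq2 on the recovered reads did not call it (adjusted p = 0.132), while edgeR did (adjusted p = 0.00110).

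**Figure D2:**
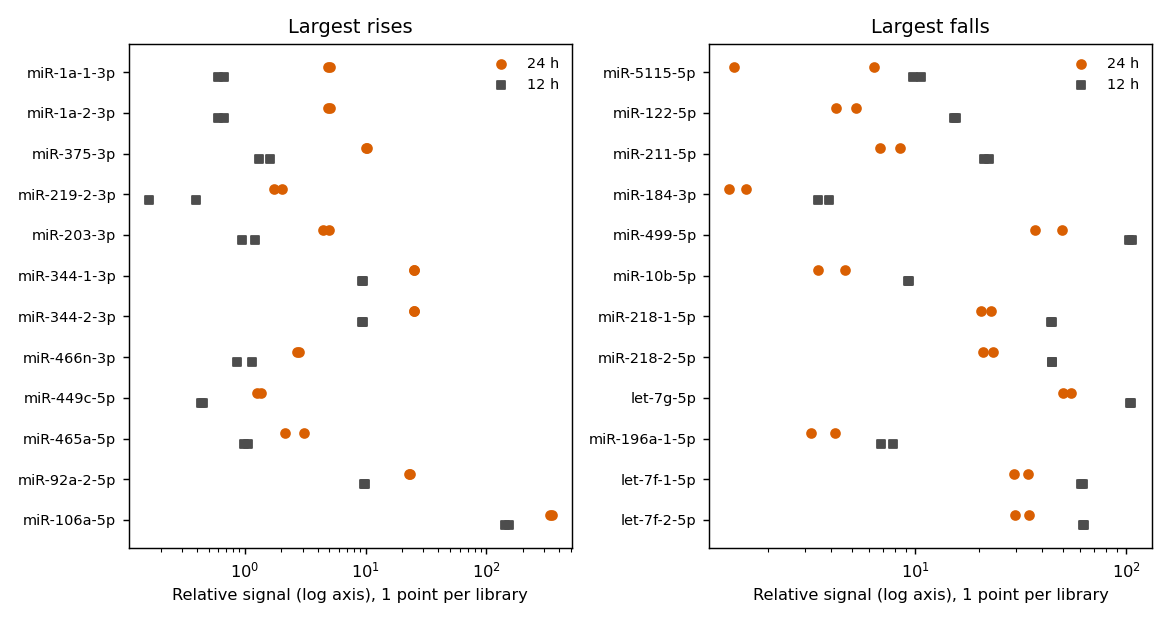
Relative signal (log axis) of the 12 largest rises and the 12 largest falls by the naming rule, 1 point per library, with 24 h in orange circles and 12 h in grey squares. The naming rule required groups that do not overlap, so the lack of overlap is no separate result. The 24 h libraries of miR-5115-5p lie apart from each other at 6.33 and 1.38.

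The miR-290/miR-295 cluster, the largest source of signal, was lower at 24 h by a small amount. Its arms summed to 38822 and 41697 at 24 h, against 45552 and 45015 at 12 h. Both 24 h sums lay below both 12 h sums, and replicate 1 was the lower. Of its 14 arms tested, 5 were called lower (15.8% over all arms) and 0 higher. For 12 of them both 24 h libraries lay below the 12 h libraries (33.1% over all arms). The median difference was -0.16, against 0.06 over all arms.

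The called arms of this cluster included 3 of its main 3p products. miR-292-3p had 3664 and 4279 at 24 h, against 5150 and 5219 at 12 h (difference -0.39, SE 0.11, limma adjusted p = 0.0135). miR-295-3p had 3432 and 3743 at 24 h, against 4746 and 4476 at 12 h (-0.36, SE 0.11, limma adjusted p = 0.0149). For miR-294-3p, whose mimic is known to promote the cell cycle of stem cells lacking Dgcr8, the values were 2279 and 2441 at 24 h, against 3062 and 2905 at 12 h (-0.34, SE 0.10, limma adjusted p = 0.0192).

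In all 3 the groups were apart, with the 24 h libraries lower. The other called arms, miR-291b-3p and miR-291b-5p, were scarcer and fell by 0.53 and 0.30 on the log2 scale. The most abundant arms of all were not called: miR-292-5p had 12648 and 13738 at 24 h, against 14160 and 14017 at 12 h (difference -0.10, SE 0.09, limma adjusted p = 0.433), and miR-293-3p had 9567 and 9827 at 24 h, against 10264 and 10161 at 12 h. miR-293-5p was not called either (-0.16, SE 0.11).

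The 5 calls rested on few libraries: 0 arms of the cluster were called in either direction without 24 h replicate 1, without 12 h replicate 1 or without 12 h replicate 2, and 6 were called lower without 24 h replicate 2.

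The miR-302/miR-367 cluster moved the other way. Its arms summed to 2472 and 2706 at 24 h, against 1773 and 1799 at 12 h. Of its 9 arms tested, 8 were called higher (26.0% over all arms) and 0 lower. All 9 had 24 h libraries above both 12 h libraries (41.5% over all arms), and the median difference was 0.79. This was a small part of its course, since the 48 h sums were 9706 and 8710, while the 0 h sums of 2255 and 2361 lay between those of 12 h and 24 h.

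miR-302a-5p had 405 and 395 at 24 h, against 226 and 227 at 12 h (difference 0.82, SE 0.11, limma adjusted p = 9.23e-05). miR-302d-3p had 602 and 603 at 24 h, against 388 and 384 at 12 h (0.64, SE 0.10, limma adjusted p = 0.000226). The libraries of a time agreed to within a few units and the times were far apart. miR-302a-3p had 178 and 163 at 24 h, against 105 and 111 at 12 h, a difference of 0.66 (limma adjusted p = 0.000376).

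miR-302b-3p, the most abundant arm of the cluster, had 1253 and 1507 at 24 h, against 1032 and 1054 at 12 h. Both 24 h libraries were above the 12 h libraries, but they differed from each other, and the call at a difference of 0.40 (SE 0.11, limma adjusted p = 0.0133) was lost with edgeR on recovered reads (adjusted p = 0.0780). The scarce 5p arms miR-302b-5p, miR-302c-5p and miR-302d-5p, which share the CUUUAAC seed, rose by 1.204, 0.79 and 1.04, and miR-367-3p by 0.94. miR-302c-3p, at 11.9 and 11.7 at 24 h, against 9.67 and 10.9 at 12 h, was the arm not called (difference 0.20).

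Within the AAGUGCU seed printed above, the 5 matched arms thus split by cluster: miR-302b-3p and miR-302d-3p were called higher, miR-294-3p and miR-295-3p lower, and miR-291a-3p was not called (1886 and 1696 at 24 h, against 1923 and 1961 at 12 h). The 5 arms together summed to 9452 and 9990 at 24 h, against 11151 and 10780 at 12 h, so the sum was lower in both 24 h libraries. At 48 h the same 5 arms summed to 15366 and 13394.

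The 3 clusters of the miR-17 family, known for promoting proliferation, differed in how many arms were called. In the X-linked miR-106a/miR-363 cluster 12 of 12 arms tested were called higher (26.0% over all arms), with a median difference of 0.95. Its arms summed to 2633 and 2940 at 24 h, against 1550 and 1610 at 12 h. All 12 arms had 24 h libraries above both 12 h libraries (41.5% over all arms).

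miR-20b-5p of this cluster had 653 and 757 at 24 h, against 336 and 349 at 12 h (difference 1.04, SE 0.12, limma adjusted p = 5.33e-05). miR-92a-2-3p had 509 and 586 at 24 h, against 311 and 338 at 12 h (0.75, SE 0.12, limma adjusted p = 0.000226), and can share reads with miR-92a-1-3p of the miR-17/miR-92 cluster. The smallest rise was that of miR-363-3p, with 533 and 609 at 24 h, against 435 and 438 at 12 h (0.38, SE 0.10, limma adjusted p = 0.00694), and with edgeR it was not called (adjusted p = 0.0756). The cluster had fallen in the first interval, where 8 of its 12 arms were called lower (13.7% over all arms). The 24 h sums were above the 0 h sums of 2281 and 2531.

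In the miR-17/miR-92 cluster 4 of 10 arms tested were called higher (26.0% over all arms) and 0 lower, with a median difference of 0.22. Its arms summed to 5109 and 5664 at 24 h, against 4360 and 4367 at 12 h. The larger changes were those of the miR-19 arms: miR-19a-3p had 74.2 and 73.1 at 24 h, against 35.5 and 36.7 at 12 h (difference 1.03, SE 0.12, limma adjusted p = 3.49e-05). miR-19b-1-3p had 250 and 248 at 24 h, against 145.3 and 148.4 at 12 h (0.76, SE 0.12, limma adjusted p = 0.000286), and its mature sequence is shared with miR-19b-2-3p of the X-linked cluster.

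In contrast to miR-19, the miR-17-5p and miR-20a-5p rises were small. miR-20a-5p had 1404 and 1475 at 24 h, against 1064 and 1120 at 12 h (0.40, limma adjusted p = 0.0149). miR-17-5p had 662 and 648 at 24 h, against 498 and 520 at 12 h (0.36, limma adjusted p = 0.0230). Neither call held with edgeR on recovered reads (adjusted p = 0.0615 for miR-20a-5p and 0.0829 for miR-17-5p), which leaves 2 called arms, as does leaving out either 12 h library. miR-92a-1-3p, the most abundant arm of the cluster, had 2528 and 3017 at 24 h, against 2436 and 2358 at 12 h, and was not called (0.20, SE 0.10, limma adjusted p = 0.128).

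In the miR-106b/miR-25 cluster, which lies in an intron of Mcm7, 1 of 6 arms was called higher (26.0% over all arms). The median difference was 0.15. The called arm was miR-25-5p (difference 0.29, limma adjusted p = 0.0446), and 0 arms were called with edgeR. miR-25-3p had 576 and 501 at 24 h, against 439 and 447 at 12 h (0.28, limma adjusted p = 0.0704), miR-93-5p 415 and 427 at 24 h, against 373 and 393 at 12 h, and miR-106b-5p 99.8 and 119 at 24 h, against 106 and 112 at 12 h. For the AAAGUGC seed, 4 of 6 arms were called higher, miR-106a-5p, miR-20b-5p, miR-17-5p and miR-20a-5p, and the 6 arms summed to 3567 and 3774 at 24 h, against 2518 and 2648 at 12 h. The plot of the 5 clusters shows that the changes of miR-106a/miR-363 arms were mostly above those of their counterparts in the other 2 clusters; the difference between clusters was not tested.

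**Figure D3:**
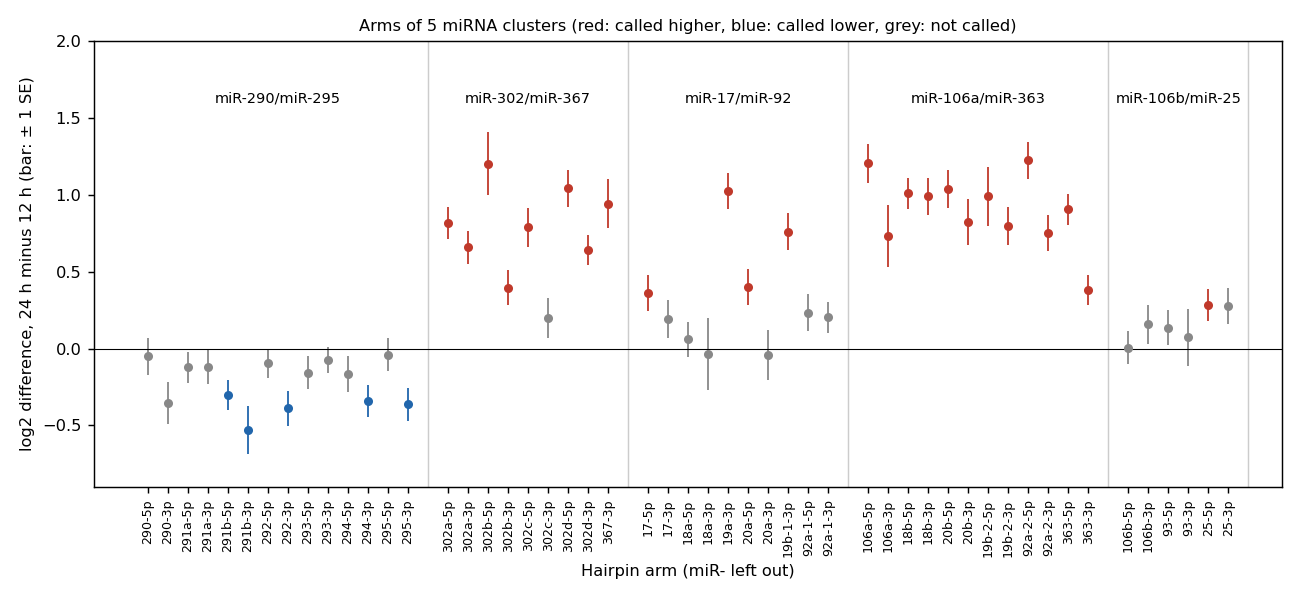
log2 difference (24 h minus 12 h) with ± 1 SE from the limma fit for each arm tested of 5 clusters, with arms called higher in red, called lower in blue and not called in grey. All 14 miR-290/miR-295 arms lie below 0, the 9 miR-302/miR-367 and 12 miR-106a/miR-363 arms lie above 0, and the miR-17/miR-92 and miR-106b/miR-25 arms spread from -0.04 to 1.03.

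Of 15 arms of let-7 and miR-98 tested, 12 were called lower (15.8% over all arms) and 0 higher. The median difference was -0.93, against 0.06 over all arms. The family summed to 170 and 177 at 24 h, against 327 and 325 at 12 h, a low level beside the stem cell clusters. The rows include copies with the same mature sequence, such as let-7f-1 and let-7f-2.

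let-7g-5p, the most abundant of them, had 54.7 and 49.8 at 24 h, against 105 and 104 at 12 h (difference -0.997, SE 0.12, limma adjusted p = 5.55e-05). let-7f-1-5p had 29.3 and 34.1 at 24 h, against 62.0 and 61.1 at 12 h (-0.96, SE 0.12, limma adjusted p = 9.23e-05). For let-7i-5p the values were 13.7 and 12.6 at 24 h, against 21.2 and 21.4 at 12 h (-0.69, SE 0.12, limma adjusted p = 0.000448).

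In each the 24 h libraries lay below the 12 h libraries with no overlap. The 3 arms not called were the 5p arms of the 2 let-7c hairpins, each with a difference of -0.04, and let-7d-3p (-0.41). The sums at 0 h were 315 and 266, close to those at 12 h, and at 48 h they were 76.2 and 74.3, so the fall began in the second interval.

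miR-99, miR-100 and miR-125, which share primary transcripts with let-7 members, were lower as well. Of 9 arms tested, 7 were called lower (15.8% over all arms) and 0 higher, with a median of -0.65. miR-99b-5p had 98.7 and 89.4 at 24 h, against 121 and 131 at 12 h (difference -0.42, SE 0.13, limma adjusted p = 0.0217). miR-125a-5p had 26.0 and 30.8 at 24 h, against 38.9 and 43.7 at 12 h (-0.54), and miR-125b-1-5p 4.19 and 4.78 at 24 h, against 7.11 and 7.24 at 12 h (-0.67). Without 12 h replicate 1, 4 arms were called lower.

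The arms from the Hox gene clusters, which carry positional identity along the body axis, were mostly called lower. Of 5 arms of miR-10 and miR-196 tested, 4 were lower (15.8% over all arms) and 0 higher, with a median of -0.89. miR-196a-2-5p had 7.37 and 9.04 at 24 h, against 14.4 and 16.2 at 12 h (difference -0.89, SE 0.14, limma adjusted p = 0.000274). The arm not called was miR-10a-5p (-0.19).

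miR-26, whose hairpins lie in introns of the Ctdsp phosphatase genes, gave 4 arms called lower of 5 tested (15.8% over all arms). The median was -0.58, and 2 of the 4 are copies that hold the same reads. miR-26a-1-5p had 565 and 613 at 24 h, against 894 and 867 at 12 h (difference -0.58, SE 0.10, limma adjusted p = 0.000470). miR-26b-5p had 77.6 and 112 at 24 h, against 157 and 148 at 12 h (-0.70, SE 0.15, limma adjusted p = 0.00231). All 24 h libraries were below the 12 h libraries, and replicate 1 was the lower of the 24 h pair in both.

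In the miR-23/miR-27/miR-24 clusters 5 of 11 arms were called lower (15.8% over all arms) and 0 higher (median -0.36). miR-24-1-3p, the same mature sequence as miR-24-2-3p, had 160 and 183 at 24 h, against 235 and 237 at 12 h (difference -0.46, SE 0.11, limma adjusted p = 0.00461). miR-27b-3p, with 578 and 548 at 24 h, against 633 and 677 at 12 h, was not called (-0.22, limma adjusted p = 0.102). These arms were among those higher in the first interval, where 7 of the 11 were called higher (8.03% over all arms). Without 12 h replicate 1, 3 were called lower in the second interval.

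miR-21a-5p, an abundant miRNA of many differentiated and stressed cells, had 2456 and 2462 at 24 h, against 3192 and 3319 at 12 h (difference -0.40, SE 0.09, limma adjusted p = 0.00351). Both 24 h libraries were lower and nearly equal. The 0 h libraries had 724 and 697, so the 12 h level was the highest of the first 3 times, and the 48 h libraries stood at 2448 and 2647.

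Rises came in 2 further families. In the miR-200 family, known for keeping the epithelial state by repressing Zeb1 and Zeb2, 5 of 9 arms were called higher and 0 lower. The share called higher over all arms was 26.0%. The family had a median of 0.41 and sums of 652 and 622 at 24 h, against 448 and 438 at 12 h. miR-200a-3p had 349 and 304 at 24 h, against 231 and 221 at 12 h (difference 0.53, SE 0.10, limma adjusted p = 0.00134). miR-200b-3p had 176 and 168 at 24 h, against 107 and 105 at 12 h (0.69, SE 0.10, limma adjusted p = 0.000222). In both the times were apart.

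miR-200c-3p rose by 0.41 (limma adjusted p = 0.0159), and miR-429-3p, at 37.7 and 50.4 at 24 h, against 41.0 and 37.7 at 12 h, overlapped between the times and was not called. The 24 h sums were near the 0 h sums of 611 and 628. With the miR-290/miR-295 cluster out of the library total, without 12 h replicate 1, or without 12 h replicate 2 or 24 h replicate 2, the number of called arms was 2, 2 and 3.

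In the miR-34/miR-449 family, the p53-induced and ciliated-cell miRNAs, 4 of 8 arms were called higher (26.0% over all arms) and 0 lower (median 0.64). The arms matched to the GGCAGUG seed were 4, of which 3 were higher (median 1.03). miR-34b-3p and miR-34c-3p carry another seed, AUCACUA, and were not called. miR-34c-5p had 11.7 and 11.4 at 24 h, against 6.36 and 5.42 at 12 h (difference 0.96, SE 0.13, limma adjusted p = 0.000145). miR-34b-5p had 5.64 and 6.06 at 24 h, against 3.19 and 2.88 at 12 h (0.93, SE 0.15, limma adjusted p = 0.000325). miR-449a-5p had 2.48 and 2.40 at 24 h, against 1.01 and 1.09 at 12 h (1.14, SE 0.15, limma adjusted p = 0.000100).

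The scarcer members of the seed thus rose with no overlap between times, and so did miR-449c-5p, with 1.36 and 1.26 at 24 h, against 0.446 and 0.436 at 12 h. miR-34a-5p, the most abundant, had 33.1 and 34.8 at 24 h, against 34.1 and 33.5 at 12 h (difference 0.01, SE 0.11, limma adjusted p = 0.972). The 4 matched arms of the GGCAGUG seed summed to 42.5 and 44.6 at 24 h, against 38.7 and 37.9 at 12 h.

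The rodent-specific repeat hairpins miR-297, miR-466, miR-467 and miR-669, most of which lie in an intron of the imprinted gene Sfmbt2, gave the greatest number of rises. Of 147 arms tested, 116 were called higher (26.0% over all arms) and 0 lower, with a median of 0.60. The rows repeat one another: counted once per profile of near-equal values, 49 of 75 were higher, beside 138 of 694 over all arms. Their reads cannot be placed on single copies with certainty, and the sum over rows, 9945 and 9404 at 24 h, against 6003 and 6123 at 12 h, may count a read in several rows.

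miR-467a-2-5p, 1 of the rows of the most abundant profile, had 256.2 and 192.5 at 24 h, against 116 and 113 at 12 h (difference 0.95, SE 0.14, limma adjusted p = 0.000222). Both 24 h libraries were higher, replicate 1 the more so. In the first interval 20 of the 147 arms were called lower, near the 13.7% of all arms, and 0 higher. In the third 136 were called higher (30.5% over all arms) and 0 lower.

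The plot of summed signal by time shows 2 forms of course among the lists. The miR-302/miR-367, miR-106a/miR-363, repeat-hairpin and miR-200 sums were lower at 12 h than at 0 h and higher at 24 h and 48 h, while the let-7, miR-26, miR-10/miR-196 and miR-290/miR-295 sums were lower at 24 h than at 12 h and lower again at 48 h. Over all arms, 64 (8.03%) were called higher and 109 (13.7%) lower between 0 h and 12 h, and 468 (58.7%) called between 24 h and 48 h, 243 higher (30.5%) and 225 lower (28.2%). Of the 207 arms higher at 24 h than at 12 h, 7 had been called higher and 43 lower in the first interval, and 159 were called higher and 14 lower in the third. Of the 126 lower arms, 22 had been called higher and 18 lower in the first interval, and 7 were called higher and 69 lower in the third. Neighbouring intervals share the libraries of the time between them, so these counts are not independent of each other.

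**Figure D4:**
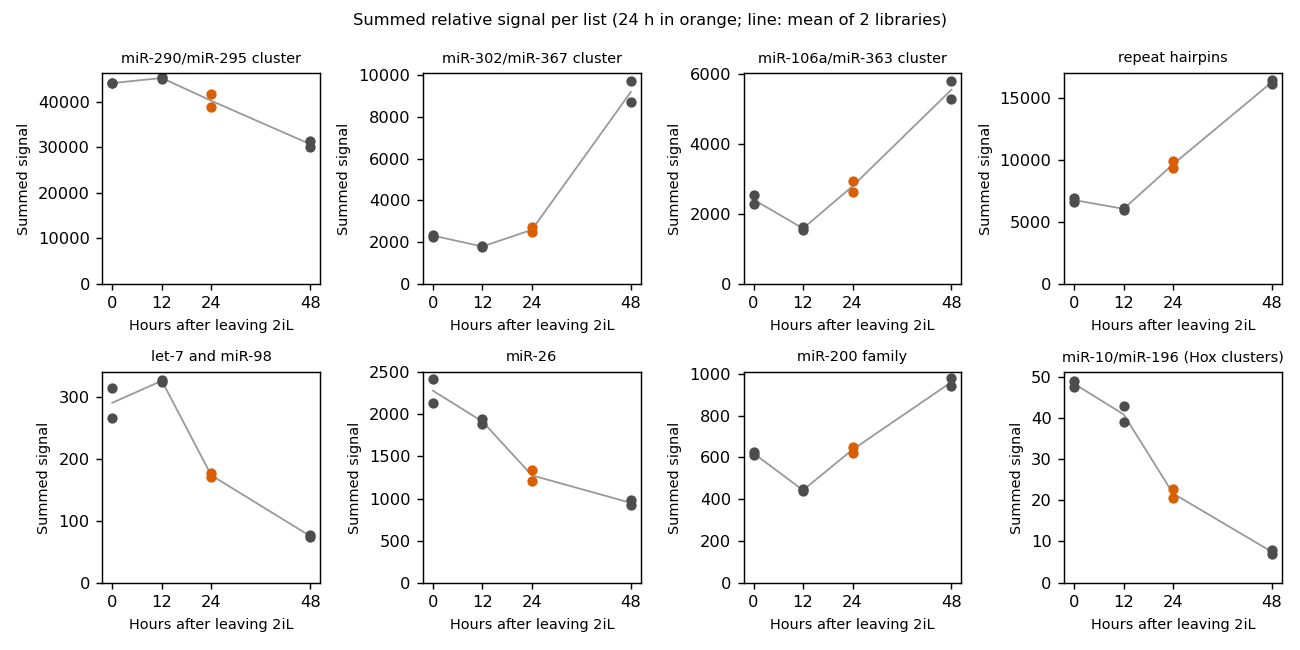
Summed relative signal of 8 lists (vertical axis from 0) at 0, 12, 24 and 48 h after leaving 2iL, 1 point per library, with 24 h in orange and a line through the means of 2 libraries; rows of copies are summed as deposited. Between 12 h and 24 h the miR-302/miR-367, miR-106a/miR-363, repeat and miR-200 sums are higher and the other 4 lower.

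The change between 12 h and 24 h was also tested against the change between 0 h and 12 h, as 1 contrast. Of the 797 arms, 26.9% had a second interval that differed from the first, 154 toward a higher (19.3%) and 60 toward a lower change (7.53%). Without 12 h replicate 1 these were 72 and 24 arms, and without 12 h replicate 2 they were 103 and 29. The median of this contrast was 0.10, so single values should be read against it. Among the lists, the second interval lay above the first for 11 of 12 miR-106a/miR-363 arms, 9 of 9 miR-302/miR-367 arms and 81 of 147 repeat arms, and below it for 10 of 15 let-7 arms and 7 of 11 miR-23/miR-27/miR-24 arms.

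The large imprinted miRNA region between Dlk1 and Dio3, expressed from the maternal chromosome and known to vary between stem cell lines, changed little as a whole. The median of its 88 arms tested was 0.07, beside 0.06 over all arms. Of them, 12 were called higher and 8 lower, beside 26.0% higher and 15.8% lower over all arms. This split depended on the scaling and on a library: it was 7 higher and 14 lower with TMM factors, 6 and 19 after quantile normalization, 4 and 1 without 24 h replicate 1, 2 and 1 without 12 h replicate 1, and 4 and 1 without 12 h replicate 2.

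In this region the 24 h libraries also differed from each other. The arms summed to 16194 and 13858 at 24 h, against 13294 and 13389 at 12 h. miR-127-3p, which is antisense to the imprinted gene Rtl1, had 3020 and 2083 at 24 h, against 1866 and 1935 at 12 h (difference 0.40, SE 0.14, limma adjusted p = 0.0406), and without 24 h replicate 1 it was no longer called. miR-434-5p had 1257 and 773 at 24 h, against 665 and 707 at 12 h (0.52, SE 0.17, limma adjusted p = 0.0242). In both, replicate 1 was far above the other 3 libraries.

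Other abundant arms of the region were not called, among them miR-541-5p (1410 and 1278 at 24 h, against 1280 and 1273 at 12 h), miR-381-3p and miR-370-3p. The 24 h libraries were over 1.5-fold apart for 7 of the 88 arms (7.95%), beside 6.27% of all arms tested. What set replicate 1 apart was not tested.

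**Figure D5:**
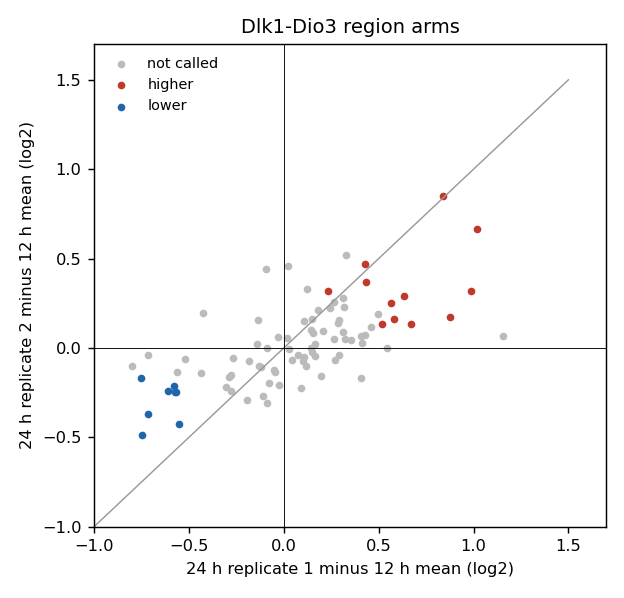
log2 signal of each Dlk1-Dio3 region arm in 24 h replicate 1 (horizontal axis) and 24 h replicate 2 (vertical axis), each minus the mean of the 2 libraries at 12 h; the diagonal marks equal changes, and red and blue mark arms called higher (12) and lower (8). Values of replicate 1 spread from -0.80 to 1.16, and those of replicate 2 from -0.49 to 0.85.

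miR-7a-1-5p, abundant in neuroendocrine tissue and the fourth most abundant arm here, had 4319 and 4185 at 24 h, against 4335 and 4352 at 12 h (difference -0.03, SE 0.10, limma adjusted p = 0.834). In the sensory-organ cluster miR-183/miR-96/miR-182, 2 of 6 arms were lower, beside 15.8% of all arms, but 0 without 12 h replicate 1 and 1 without any 1 of the other 3 libraries. miR-183-5p had 1916 and 1859 at 24 h, against 2317 and 2248 at 12 h (-0.27, SE 0.09, limma adjusted p = 0.0302). miR-182-5p, at 2144 and 1767 at 24 h, against 1951 and 1962 at 12 h, was not called, and its 24 h libraries lay on either side of those at 12 h.

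Of the cell cycle-braking miR-15/miR-16/miR-322/miR-503 family, 1 of 15 arms was higher (miR-195a-5p, 0.66) and 3 lower (miR-15a-5p, miR-322-5p and miR-503-5p, -0.39 to -0.51). The shares over all arms were 26.0% higher and 15.8% lower. miR-16-2-5p was at 132.99 and 135.07 at 24 h, against 150 and 149 at 12 h (-0.16, limma adjusted p = 0.250). In the miR-148/miR-152 family 1 of 6 arms was higher (miR-148a-5p, 0.40) and 3 lower, while its abundant arm miR-148a-3p was not called (1758 and 1442 at 24 h, against 1585 and 1729 at 12 h). Without either 12 h library, 0 arms of the 2 families were called lower. Without 24 h replicate 1, 0 arms were lower in the first family and 2 in the second, and without 24 h replicate 2, 4 and 1.

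Among miR-30 arms 2 of 12 were lower, near the 15.8% of all arms, and 0 higher. Without 12 h replicate 2, 0 were lower, without 24 h replicate 2, 2 were higher, and with the miR-290/miR-295 cluster out of the library total 4 were lower. miR-30e-5p had 974 and 829 at 24 h, against 739 and 726 at 12 h, and just missed the threshold (0.30, SE 0.11, limma adjusted p = 0.0506). In miR-130/miR-301, 2 of 8 arms were lower, but 0 without either 12 h library and 1 without 24 h replicate 1. Of 4 miR-29 arms, 0 were called by limma, edgeR or DESeq2, and 0 had an unadjusted p below 0.05; miR-29a-3p, at 8.97 and 10.5 at 24 h, against 8.70 and 8.66 at 12 h, showed a difference of 0.16 (SE 0.12).

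Of hairpins that are processed without Dgcr8, 1 of 4 arms was called higher (26.0% over all arms). It was miR-320-3p, with 67.2 and 62.5 at 24 h, against 48.7 and 49.5 at 12 h (difference 0.40, SE 0.10, limma adjusted p = 0.00796), and the call was lost without either 12 h library and after quantile normalization. miR-484-5p, at 173 and 180 at 24 h, against 159 and 154 at 12 h, was not called (0.17, limma adjusted p = 0.173).

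Of the neural markers (miR-9, miR-124, miR-128, miR-132/miR-212, miR-137 and miR-219), 23 arms were tested, 4 were higher, all miR-219 arms, and 7 lower, from miR-124 and miR-132/miR-212. The miR-124 3p rows are copies: with near-equal rows counted once, 4 of 16 profiles were higher and 5 lower. These counts stand beside 26.0% higher and 15.8% lower over all arms. The neural arms summed to 793 and 900 at 24 h, against 867 and 866 at 12 h. miR-9-2-5p, at 102 and 112 at 24 h, against 101 and 110 at 12 h, was not called. Without 12 h replicate 1 the neural calls were 2 higher and 1 lower, without 12 h replicate 2 they were 1 and 1, and without 24 h replicate 1 they were 3 and 3.

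Among the muscle markers, 4 of 5 arms tested were higher (26.0% over all arms), from miR-1a and miR-133a, and miR-499-5p was lower. The miR-1a rows hold the same reads, and with near-equal rows counted once 3 of 4 profiles were higher. The miR-133a 3p rows were scarce and close to each other, with 0.235 and 0.352 at 24 h, against 0.127 and 0.0723 at 12 h for miR-133a-2-3p. The muscle arms summed to 47.4 and 60.9 at 24 h, against 108 and 104 at 12 h, most of it miR-499-5p. The other defining muscle miRNAs stayed near 0: miR-206-3p had 0.0264 and 0.0304 at 24 h, against 0 and 0.0582 at 12 h, and 12 of the 18 muscle arms were below 0.1 in each of the 4 libraries, 5 of them at 0. Without 12 h replicate 2 or without 24 h replicate 2, 2 arms were called higher. The part of muscle-like cells in the miR-1a rise was not tested.

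The blood markers summed to 229 and 263 at 24 h, against 210 and 218 at 12 h. The most abundant were miR-142-5p, with 94.6 and 111 at 24 h, against 89.0 and 91.8 at 12 h, and miR-142-3p. miR-142-3p had 83.5 and 108 at 24 h, against 69.3 and 75.4 at 12 h. miR-150-5p had 43.4 and 36.3 at 24 h, against 45.2 and 44.2 at 12 h. Of 7 arms, 2 were higher (miR-142-3p and miR-150-3p), near the 26.0% of all arms, and miR-155-5p was lower (15.8% over all arms). With TMM factors or with the miR-290/miR-295 cluster out of the library total, 0 were higher. Among the blood markers 0 were called in either direction without 12 h replicate 1, 1 was higher without any 1 of the other 3 libraries, and 0 were lower without 24 h replicate 1. With edgeR miR-142-3p was not called (adjusted p = 0.0563), and with DESeq2 miR-150-3p was not (adjusted p = 0.0693). The blood miRNA miR-223-3p was at 0.0262 and 0.0615 at 24 h, against 0 in both 12 h libraries, which is under the floor of 3 reads (0.0393 and 0.0460 at 24 h, 0.0476 and 0.0436 at 12 h) in 3 of the 4 libraries. The floor covers counting error only.

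Of the fibroblast and feeder markers, 2 of 12 arms were lower, near the 15.8% of all arms, and 0 higher. The median difference of this list was -0.18, and -0.19 without 12 h replicate 2. The sum of its arms, 2685 and 2683 at 24 h, against 3482 and 3617 at 12 h, was mostly miR-21a-5p. miR-214-3p, a defining fibroblast miRNA, did not exceed 0.0306 in the 4 libraries. Of the 16 fibroblast and feeder arms, 4 were below 0.1 in each of the 4 libraries. Other markers of the list were present. miR-143-3p had 157.5 and 144.4 at 24 h, against 207.3 and 214.1 at 12 h. It was called lower (limma adjusted p = 0.00148). miR-199a-1-3p had 12.5 and 15.3 at 24 h, against 15.8 and 16.1 at 12 h, and was not called. Among the endoderm and gut markers, miR-375-3p was higher and miR-122-5p and miR-192-5p lower of 5 arms tested, with sums of 92.0 and 84.8 at 24 h, against 109 and 112 at 12 h. The number of lower arms was 1 without 24 h replicate 2 or either 12 h library, and 4 after quantile normalization.

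The balance between the 2 arms of a hairpin does not depend on how libraries are scaled. It was tested for 298 hairpins with both arms measured, and 15 (5.03%) shifted, 11 toward the 5p arm (3.69%) and 4 toward the 3p arm (1.34%). Without the filter on low values the split turned over, with 4 of 11 shifts toward the 5p arm and 7 toward the 3p arm. The number was unstable: it was 0 when limma was fitted to the 4 libraries alone and 23 with a pseudocount of 0.5, and between 2 and 22 when a library was left out.

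The larger shifts toward the 5p arm were those of miR-760 (1.38, SE 0.20, limma adjusted p = 0.00610) and miR-185 (1.29, SE 0.17, limma adjusted p = 0.00462). For miR-185, which lies in an intron, the 5p arm had 47.6 and 39.5 at 24 h, against 31.6 and 33.1 at 12 h, and the 3p arm 0.550 and 0.490 at 24 h, against 1.03 and 1.03 at 12 h. For miR-760, the 5p arm had 4.15 and 3.68 at 24 h, against 2.54 and 2.92 at 12 h, and the 3p arm 0.628 and 0.553 at 24 h, against 1.27 and 1.06 at 12 h. In both hairpins the arms moved apart in both libraries.

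Shifts between 0.99 and 1.15 toward the 5p arm were made by miR-465a, miR-496a, let-7c-2 and miR-6361. Toward the 3p arm, miR-219-2 shifted by -1.70 and miR-218-1 by -1.36, followed by miR-466j (-0.97) and miR-376b (-0.68). For miR-218-1 the 3p arm had 2.09 and 3.65 at 24 h, against 1.74 and 2.68 at 12 h, so that its libraries overlapped between the times while the 5p arm fell.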

How the data were processed

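Small RNA of 8 libraries (4 times, 2 each) was analysed; total RNA libraries of the series were not used, since none was taken at 12 h or 24 h. Per the labels' protocols, RNA was extracted with Trizol and libraries were made with the Illumina Truseq small RNA kit; trimming, mapping and assignment of reads to hairpin arms are steps not given in the sources used here. For tools and build, the submitters' processing notes list STAR 2.5.0, Cufflinks 2.2.1 and mm10, without saying whether they apply to the small RNA data. What the authors deposited is a relative signal, given for each hairpin arm, with a sum of 110000 in every library. Steps between low values were taken to mean that 2 tables of reads had been scaled to equal totals and added for each library. Undoing this gave whole reads (within 0.01 reads) for 100% of the 610 to 651 low values per library. The inferred reads summed to 5441382 to 9131989 per library over all rows. The 2 fitted steps lay close together (0.0130 and 0.0132 in 24 h replicate 1), so the larger of the low values would pass whatever they were. The 100% therefore cannot show that 2 tables were added. One read was worth 0.0131 and 0.0153 at 24 h, and 0.0159 and 0.0145 at 12 h, and the 2 libraries of a time were correlated over arms at 0.995 (24 h) and 0.998 (12 h).

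The log2(signal + 0.1) of arms with a mean of at least 0.2 over the 8 libraries was fitted with limma 3.58.1 (R 4.3.3; 4 group means, trend in the variance, 4 residual and 8.80 prior degrees of freedom), with Benjamini-Hochberg adjustment over the 797 arms. The plan allowed for signal or counts, and the signal branch was used. The second interval minus the first, and log2 of the 5p over the 3p arm, were fitted likewise, the arm ratio without the trend. Counts recovered from the deposited signal were tested with edgeR 4.0.16 and DESeq2 1.42.0 as alternatives. The scripts were tested on simulated data. Rows within 5% in every library and of the same miRNA number and arm were taken as 1 profile.

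The text names the 12 largest rises and falls among called arms with non-overlapping groups and a mean of at least 1 over the 8 libraries, the 10 most abundant arms, the 6 largest shifts each way in arm ratio and up to 4 abundant members of each of 27 lists; other arms named were chosen after their values were seen. The members and lists were chosen with earlier results of these data known. Alternatives were other pseudocounts, filters and scalings, a replicate block, summing rows of the same mature name, fitting the 4 libraries alone, the count tests, and leaving out each library. Recounting each list under these alternatives was chosen after the data were seen. Coordinates and sequences are RefSeq's on GRCm38.p6.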

Additional observations from a re-analysis of the deposited data

Results flagged for a closer look

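Arms are given here because their change between 12 h and 24 h differed from their change between 0 h and 12 h by the limma contrast (adjusted p below 0.05). Of 110 named profiles, 41 met this, 26 with a higher and 15 with a lower second interval. Over all 797 arms 26.9% met it, 19.3% with a higher and 7.53% with a lower second interval. The named profiles include the 12 largest rises and 12 largest falls between 12 h and 24 h. That difference is a term of this contrast, so the choice of arms can raise their count. Each value is the log2 change of the second interval minus that of the first, and the 2 intervals share the 12 h libraries, whose deviations enter both with opposite signs. The largest positive values were 2.79 for miR-219-2-3p, 2.35 for miR-1a-1-3p, 2.06 for miR-106a-5p, 1.85 for miR-449c-5p, 1.80 for miR-203-3p, 1.73 for miR-20b-5p, 1.71 for miR-449a-5p, 1.57 for miR-466n-3p and 1.34 for miR-467a-2-5p. The next values were 1.24 for miR-465a-5p, 1.22 for miR-200a-3p, 1.20 for miR-302a-3p, 1.17 for miR-344-1-3p, 1.14 for miR-92a-2-5p, 1.11 for miR-302a-5p, 1.11 for miR-92a-2-3p, 1.08 for miR-19b-1-3p and 1.06 for miR-363-3p. The remaining positive values were 1.05 for miR-302d-3p, 0.95 for miR-200b-3p, 0.77 for miR-17-5p, 0.74 for miR-302b-3p, 0.73 for miR-148a-5p, 0.66 for miR-20a-5p, 0.64 for miR-320-3p and 0.57 for miR-484-5p. The largest negative values were -4.63 for miR-122-5p, -2.60 for miR-21a-5p, -1.60 for miR-184-3p, -1.27 for let-7f-1-5p, -1.25 for miR-499-5p and -1.12 for miR-26b-5p. The other negative values were -1.11 for miR-196a-1-5p, -1.09 for let-7g-5p, -0.84 for miR-24-2-3p, -0.80 for miR-27a-3p, -0.71 for miR-196a-2-5p, -0.69 for miR-211-5p, -0.65 for miR-292-3p, -0.60 for miR-218-1-5p and -0.58 for miR-218-2-5p.

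The first of these, miR-122-5p, had 4.19 and 5.24 at 24 h, against 15.3 and 15.6 at 12 h, and its 0 h libraries had 1.90 and 2.00. For miR-21a-5p, the values were 2456 and 2462 at 24 h, against 3192 and 3319 at 12 h, with 724 and 697 at 0 h. Both thus had their highest values of the first 3 times in the 12 h libraries. The median of the contrast over all 797 arms was 0.10 with the deposited totals and -0.01 with TMM factors, and without 12 h replicate 1 it called 96 arms over the whole table, against 154 with a higher and 60 with a lower value from all 8 libraries. No explanation of these differences was tested.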

How the results depend on the processing

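Of 333 arms called, 307 were also called with the same sign by edgeR (339 calls, 182 higher and 157 lower) and 308 by DESeq2 (320 calls). The count was 280 to 343 under the other pseudocounts, filters, scalings and the fit of the 4 libraries alone, 234 with rows of one mature name summed, and 211 to 326 with 1 library left out, the lowest without 12 h replicate 1. Numbers in the labels did not pair the libraries (correlations of deviations between -0.25 and 0.23), and a replicate block gave 330 arms. The split of 207 higher and 126 lower became 179 and 161 with TMM factors, 161 and 167 after quantile normalization and 172 and 161 without the miR-290/miR-295 cluster in the total.

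The arms whose intervals differed were 204 to 234 under other scalings, and with rows of one mature name summed they were 98 higher and 46 lower. With 1 library left out they were 96 to 247; the settings without a 0 h library, chosen after the data were seen, lie within this range. The split of 154 and 60 (72.0% higher) became 59.6% higher with TMM factors, 53.0% with quantile normalization, 60.8% without the cluster and 58.9% with edgeR.

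The 15 shifts in arm ratio became 6 and 23 with pseudocounts of 0.02 and 0.5, 5 with arms of a mean of at least 1, 11 (4 toward the 5p arm) without the low-value filter, 0 with the 4 libraries alone, 9 with the replicate block and 2 to 22 with 1 library left out; the cause was not tested. Of 2026 values for the named arms, 1892 kept their side of the threshold, 114 lost it, 20 gained it and 0 changed direction, and of 93 values for 10 arm ratios 56 lost it. miR-127-3p (10 settings), miR-302b-3p and miR-142-3p (8 each) lost the call most often. With 2 libraries a time, leaving 1 out assumes that the remaining library varies like those of the other times, and arms below 0.2 were not tested at this depth.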

Other observations

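Outside the 27 lists, 340 arms were tested, of which 31 were higher and 55 lower at 24 h. Over all 797 arms 26.0% were higher and 15.8% lower, so the share of falls outside the lists was near that of all arms. The share of rises was smaller. At a mean of at least 5 over the 4 libraries, the arms outside the lists were 130, with 13 higher and 29 lower. Those named here were chosen after their values were seen. miR-181d-5p had 101 and 98.4 at 24 h, against 153.0 and 145.4 at 12 h (log2 difference -0.58, limma adjusted p = 0.00127), and miR-181c-5p had 10.5 and 13.5 at 24 h, against 21.8 and 23.2 at 12 h (-0.91). Of the 6 arms tested with their ACAUUCA seed, these 2 were lower and miR-181b-2-5p higher, with a median of 0.36. miR-22-3p had 320 and 352 at 24 h, against 534 and 531 at 12 h (-0.66), after a rise of 0.82 in the first interval. As in all 333 called arms, the groups did not overlap in any of these.

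Among the rises, miR-335-5p, which lies in an intron of the imprinted gene Mest, had 67.6 and 66.9 at 24 h, against 34.9 and 31.3 at 12 h (1.02). miR-31-5p had 7.52 and 6.42 at 24 h, against 3.66 and 3.62 at 12 h (0.91), and miR-542-3p 48.9 and 36.0 at 24 h, against 22.02 and 22.04 at 12 h (0.93). All were above both 12 h libraries in both 24 h libraries, as was every arm called higher.

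miR-5115-5p, miR-5109-3p and miR-6240-3p fell between 12 h and 24 h and were higher again at 48 h, by 2.76, 1.02 and 0.59 on the log2 scale. miR-5109-3p had 136.8 and 90.7 at 24 h, against 218 and 211 at 12 h. miR-6240-3p had 163 and 152 at 24 h, against 277 and 273 at 12 h.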
